A study of Xenopus laevis with 4 samples.

Results

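The genes that write, erase and read DNA methylation and histone methylation were examined for MBD peaks, that is, for stretches of captured methylated DNA at the genes themselves. The genes were chosen by symbol from the RefSeq annotation of the Xenopus laevis genome (v10.1). A protein-coding gene was taken where its symbol was 1 of 45 listed stems, either alone or followed by .L or .S. Of the stems, 40 were found, which gave 69 machinery genes of the 34461 protein-coding genes on the 18 chromosomes. Xenopus laevis is an allotetraploid frog with an L and an S subgenome, and the copies of a gene on the 2 subgenomes are called homeologs. There were 33 genes on L and 36 on S. Both homeologs were found for 29 stems and 1 homeolog for 11 stems. The suz12 gene without a suffix lies on chromosome 9_10S and was paired with suz12.L. The stems dnmt3a, tet1, kmt2b, kdm4a and kdm5a matched no symbol and were not analysed here.

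In vertebrates, cytosines in CpG pairs are methylated by DNA methyltransferases, oxidised by TET enzymes and bound by proteins with a methyl-CpG-binding domain (MBD). Trimethylation of lysine 4 of histone H3 (H3K4) is found mainly at unmethylated CpG islands, to which CXXC zinc finger proteins such as Cxxc1 recruit the enzymes that write it. H3K9 and H3K27 methylation are associated with silent chromatin, and H3K36 methylation with transcribed gene bodies.

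The data were MBD-seq libraries, in which genomic DNA fragments with methylated CpGs are captured with an H6-GST-MBD fusion protein and sequenced. Each replicate pooled 250 whole wild-type embryos at the 256-cell stage (4.5 h post fertilization), that is, before zygotic genome activation (ZGA). The capture was done in 2 replicates, each with an Input library of uncaptured DNA that was used here only through the peak calling of the authors. All embryos were untreated wild type, so the series has no second condition to compare.

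Replicate 1 held 17645240 tags and 131303 peaks, and replicate 2 held 23909019 tags and 222771 peaks. A peak was called where a window passed a minimum number of tags and a 4-fold enrichment over Input, and most peaks had the width of a single window. A gene without a peak did not reach this threshold, which does not show that its DNA was unmethylated. With 2 libraries of 1 group there was no comparison of conditions to test, and genes are not replicates, so the counts of machinery genes were read beside those of other coding genes without a test. Longer genes have more room for peaks, and each machinery gene was therefore set beside the 200 other coding genes nearest to it in length (genes of like length).

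Most machinery genes carried MBD peaks within the gene body, at about the frequency of other genes of their length. The gene body ran from the first to the last annotated base. In both replicates, 51 of 69 machinery genes (73.9%) had a body peak, against 67.7% of genes of like length, which would give 46.7 genes, and 45.6% of all coding genes. Machinery genes were long, with a median of 39.9 kb and a range from 3.98 kb (suv39h1.L) to 173.6 kb (kmt2c.L), against a median of 17.2 kb for all coding genes. In replicate 1, 54 machinery genes (78.3%) had a body peak, against 70.6% of genes of like length. In replicate 2, 55 machinery genes (79.7%) had one, against 82.9% of genes of like length. The machinery genes were thus above genes of like length in replicate 1 and below them in replicate 2. A body peak was found in replicate 1 alone for setd1b.L, kdm5b.S and suz12.L. It was found in replicate 2 alone for tdg.S, dpy30.L, suz12 and suv39h1.S. The 3 genes with replicate 1 alone were 4.35% of machinery genes, against 2.88% of genes of like length and 4.36% of all coding genes. The 4 genes with replicate 2 alone were 5.80%, against 15.2% and 17.1%. The cause of this lower share was not tested. The remaining 11 genes (15.9%) had no body peak in either replicate, against 14.3% of genes of like length. With only peaks above the commonest width, 23 machinery genes had a body peak in both replicates, at 0.983 times the number from genes of like length.

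The share of body bases in peaks averaged 2.41% over the machinery genes in replicate 1, against 2.42% for genes of like length. In replicate 2 it averaged 3.88%, against 4.60%. The mean of both was 3.14% ± 1.04 (SD, n = 2), against 3.51% for genes of like length and 3.22% for all coding genes. The median over the machinery genes was 1.89% in replicate 1 and 3.62% in replicate 2. The median of the genes of like length was taken for each machinery gene apart, and these medians averaged 1.69% and 3.47%. A median over genes and an average of medians are unlike measures, so no direction was read from them. Of the 69 genes, 30 were above the median of their genes of like length, 34 below and 5 equal to it. Replicate 2 gave the higher share for 44 machinery genes and replicate 1 for 10. Across the 69 genes, Spearman's rho between the replicates was 0.59, against 0.56 across all coding genes. This correlation is across genes of the same 2 libraries and is given as a description.

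**Figure D1:**
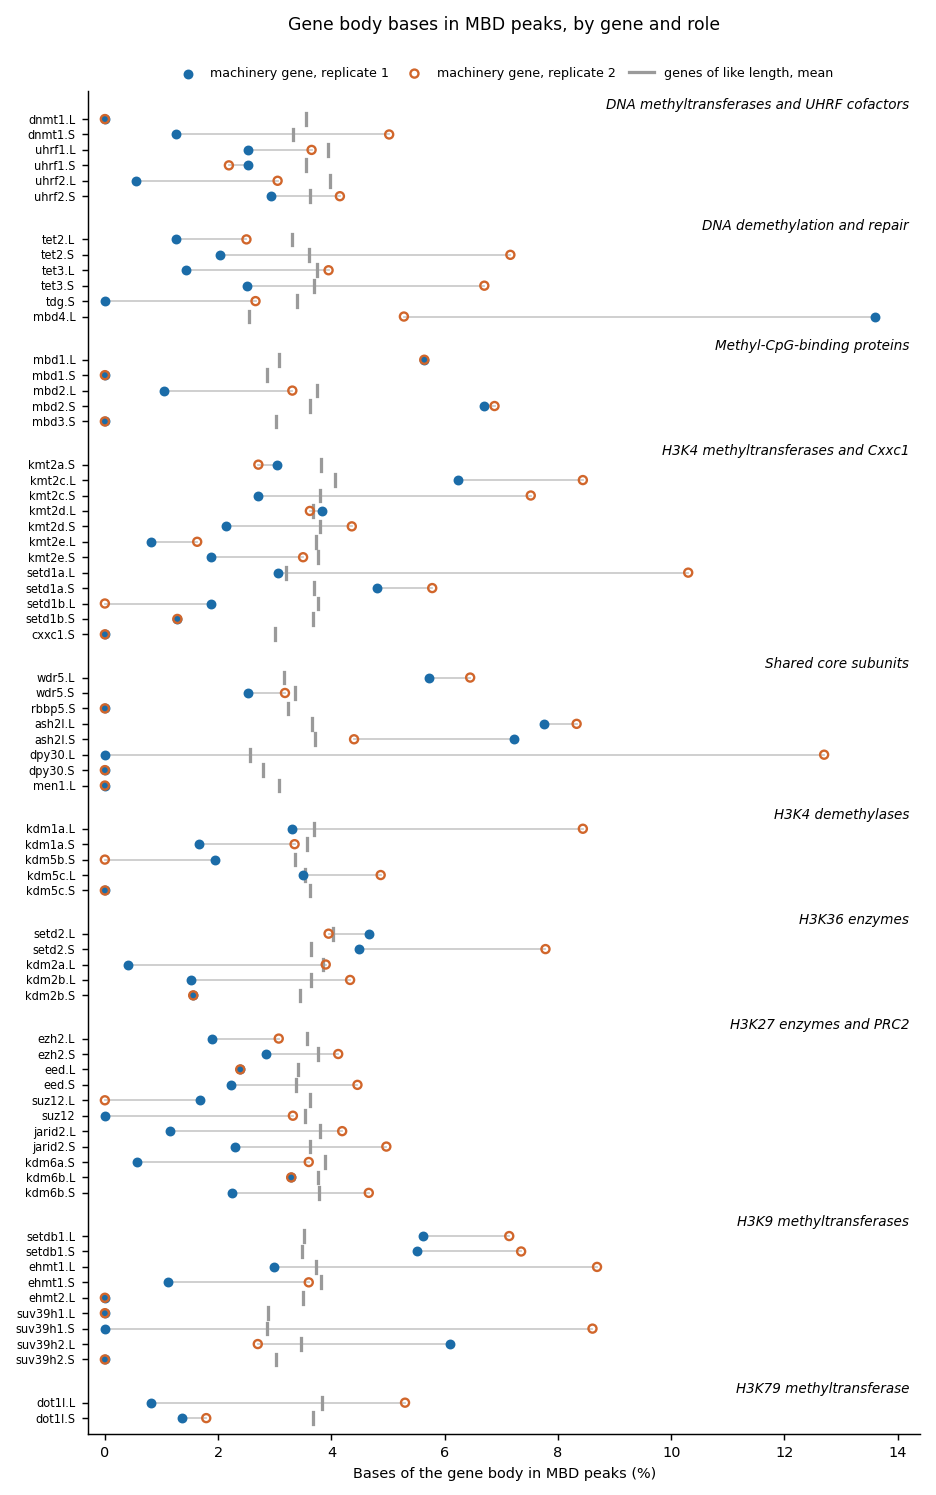
Share of gene body bases in MBD peaks (%, x axis) for each of the 69 machinery genes, grouped by role. Filled points are replicate 1, open points replicate 2, and grey ticks the mean of the genes of like length over both replicates. The points lie on both sides of the grey ticks in most groups, and 11 genes sit at 0 in both replicates. Genes of like length averaged 2.42% in replicate 1 and 4.60% in replicate 2, so a tick is no reference for a single replicate.

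The number of body peaks followed gene length. Spearman's rho between length and the mean number of body peaks was 0.85 across the machinery genes and 0.80 across all coding genes. All 7 machinery genes above 100 kb had body peaks in both replicates, as did 96.0% to 99.5% of the genes of like length of each. These were uhrf1.S, kmt2a.S, kmt2c.L, kmt2c.S, kdm2a.L, jarid2.L and jarid2.S. Of the 9 genes under 10 kb, mbd1.L and mbd4.L had a body peak in both replicates and 5 had none in either. Of the genes of like length of each, 8.50% to 21.5% had a body peak in both replicates. Per 10 kb of body, machinery genes held 0.417 peaks in replicate 1 and 0.689 in replicate 2, against 0.427 and 0.738 for genes of like length.

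**Figure D2:**
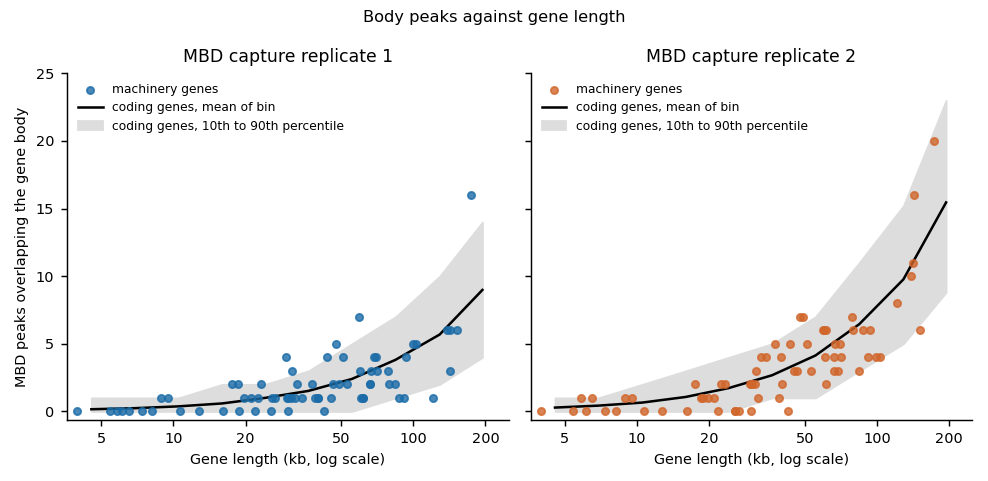
MBD peaks overlapping the gene body (y axis) against gene length in kb (x axis, log scale) in replicate 1 (left) and replicate 2 (right). Points are the 69 machinery genes, the line is the mean of coding genes in bins of length and the band their 10th to 90th percentile. Most machinery genes lie within the band, and kmt2c.L, with 16 peaks in replicate 1, is among those above it.

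The peaks in machinery genes were mostly of the common width and were shared between replicates about as often as elsewhere. Machinery gene bodies held 144 peaks in replicate 1, of which 90 (62.5%) overlapped a peak of replicate 2, against 60.7% over all coding genes. In replicate 2 they held 238 peaks, of which 90 (37.8%) overlapped a peak of replicate 1, against 35.2%. The widest peaks were 1758 bp in setd2.L in replicate 1 and 1579 bp in setd1a.L in replicate 2. Of the 51 genes with body peaks in both replicates, 43 had peaks that overlapped each other. This was 1.07 times the number from genes of like length, so the count was near theirs. In the other 8, namely kmt2e.L, setd1b.S, wdr5.S, kdm1a.S, kdm2a.L, kdm2b.L, eed.L and eed.S, the replicates had peaks at different places in the body.

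Among DNA methyltransferases and their UHRF cofactors, 5 of 6 genes had a body peak in both replicates, where genes of like length would give 5.31. Dnmt1 is the maintenance methyltransferase that copies methylation to the new strand after replication. The dnmt1.L gene (chromosome 3L, 146626799 to 146669389) is 42.6 kb long and had no body peak in either replicate, and it was the longest machinery gene without one. Of its genes of like length, 80.5% had a body peak in both replicates. Its nearest peak was 16713 bp away in replicate 1 and 1915 bp away in replicate 2. The dnmt1.S gene (chromosome 3S, 122373204 to 122413144) is 39.9 kb long and had 1 body peak in replicate 1 and 4 in replicate 2. These covered 1.25% and 5.02% of its bases. The peak of replicate 1 lay 2022 bp inside the first base and overlapped a replicate 2 peak that lay 2056 bp inside it.

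Uhrf1 binds hemimethylated CpG and brings Dnmt1 to replicated DNA. The uhrf1.L gene (chromosome 1L, 97401695 to 97472400) had 3 body peaks in replicate 1 and 4 in replicate 2, over 2.53% and 3.65% of its bases. The uhrf1.S gene (chromosome 1S, 79024316 to 79175807), annotated at 151.5 kb against 70.7 kb for uhrf1.L, had 6 body peaks in each replicate, over 2.52% and 2.19% of its bases. Averaged over both replicates, uhrf1.L had 3.09%, against 3.94% for its genes of like length, and uhrf1.S had 2.36%, against 3.56%. As a group, the 6 genes averaged 1.63% in replicate 1 and 3.01% in replicate 2, against 2.52% and 4.81% for genes of like length.

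Among the genes of DNA demethylation and repair, 5 of 6 had a body peak in both replicates, where genes of like length would give 4.01. They averaged 3.47% of body bases in peaks in replicate 1 and 4.71% in replicate 2, against 2.31% and 4.45%. The replicate 1 average rests largely on mbd4.L at 13.6%, while tet2.L, tet2.S, tet3.L, tet3.S and tdg.S had 1.25%, 2.04%, 1.43%, 2.51% and 0%. In replicate 2 mbd4.L had 5.28%, and tet2.S and tet3.S were higher at 7.16% and 6.70%. Tet3 oxidises methylated cytosine and is the TET enzyme known from vertebrate eggs and early embryos. The tet3.L gene (chromosome 3L, 128305149 to 128384417) had 2 body peaks in replicate 1 and 6 in replicate 2, over 1.43% and 3.95% of its bases. The tet3.S gene (chromosome 3S, 32572453 to 32632413) had 3 and 6 body peaks, over 2.51% and 6.70% of its bases. The mbd4.L gene (chromosome 4L, 131320192 to 131329686) codes for a DNA glycosylase that removes thymine opposite guanine at CpG. It had the highest mean share of all machinery genes, 9.42% ± 5.86 (SD, n = 2), from a single peak in each replicate. This peak was 1288 bp wide in replicate 1, and the replicate 2 peak, of the common width, lay inside it. The 9.49 kb length of mbd4.L makes 1 peak a large share of its body, and 18.0% of its genes of like length had a body peak in both replicates. Tdg is the glycosylase that excises the oxidised cytosines made by TET enzymes. The tdg.S gene (chromosome 3S, 97489710 to 97508523) had no body peak in replicate 1 and 1 in replicate 2, and is described below with the gene ends.

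Among methyl-CpG-binding proteins, 3 of 5 genes had a body peak in both replicates, where genes of like length would give 2.46. They averaged 2.67% in replicate 1 and 3.17% in replicate 2, against 2.17% and 4.36%. Mbd1 combines an MBD with CXXC zinc fingers. The mbd1.L gene (chromosome 8L, 893523 to 902404) had 1 body peak of the common width in each replicate, at nearly the same position, which covered 5.64% of its bases in both. The mbd1.S gene (chromosome 8S, 26228609 to 26239279) had no body peak in either replicate. Mbd2 is a methyl-CpG-binding subunit of the NuRD deacetylase complex. The mbd2.S gene (chromosome 1S, 191634554 to 191694019) had 7 body peaks in replicate 1 and 6 in replicate 2, over 6.69% and 6.88% of its 59.5 kb. This mean of 6.78% ± 0.138 (SD, n = 2) was higher than that of 91.5% of its genes of like length. The gene was named as 1 of the 6 highest shares, so a high rank follows in part from the choice. The mbd2.L gene is nearly as long and had 1 body peak in replicate 1 and 4 in replicate 2, over 1.04% and 3.31% of its bases. The mbd3.S gene, for the other MBD subunit of NuRD, is 8.17 kb long and had no body peak.

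Among the Kmt2 and Setd1 family genes and cxxc1, 10 of 12 genes had a body peak in both replicates, where genes of like length would give 9.53. They averaged 2.64% in replicate 1 and 4.10% in replicate 2, against 2.51% and 4.81%. Cxxc1 is the subunit of the Setd1 complexes that binds unmethylated CpG. The cxxc1.S gene (chromosome 8S, 26214464 to 26220561), the only cxxc1 homeolog found by symbol, is 6.10 kb long. It had no body peak in either replicate, with the nearest peak 4453 bp away in replicate 1 and 4432 bp away in replicate 2. Of its genes of like length, 12.5% had a body peak in both replicates. It lies 8047 bp from mbd1.S, the only pair of machinery genes within 20 kb of each other, so their flanks share sequence. Kmt2c is a large methyltransferase that places H3K4 monomethylation at enhancers. The kmt2c.L gene (chromosome 6L, 13171983 to 13345537) had 16 body peaks in replicate 1 and 20 in replicate 2, the most of any machinery gene. They covered 6.23% and 8.44% of its bases, with a mean of 7.34% ± 1.56 (SD, n = 2). This mean was higher than that of 97.5% of its genes of like length. As kmt2c.L was also named as 1 of the 6 highest shares, its high rank follows in part from the choice. The kmt2c.S gene (chromosome 6S, 9036240 to 9178300) had 6 body peaks in replicate 1 and 16 in replicate 2, over 2.71% and 7.52% of its bases.

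Setd1a is a methyltransferase that places H3K4 trimethylation at promoters. The setd1a.L gene (chromosome 9_10L, 132730547 to 132763450) had 2 body peaks in replicate 1 and 4 in replicate 2, over 3.05% and 10.3% of its bases. Its mean of 6.69% ± 5.15 (SD, n = 2) rests largely on replicate 2. The remaining genes with a body peak ranged from a mean of 0.942% (setd1b.L) to 5.30% (setd1a.S).

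Among the subunits of H3K4 methyltransferase complexes listed here (wdr5, rbbp5, ash2l, dpy30 and men1), 4 of 8 genes had a body peak in both replicates. Genes of like length would give 2.98. They averaged 2.91% in replicate 1 and 4.38% in replicate 2, against 2.21% and 4.18%. The replicate 2 average includes 12.7% at dpy30.L, from 1 peak in a gene of 6.51 kb, and 0 at rbbp5.S, dpy30.S and men1.L. Ash2l stimulates the catalytic subunits together with Wdr5, Rbbp5 and Dpy30. The ash2l.L gene (chromosome 3L, 141552886 to 141576054) had 2 body peaks in each replicate, over 7.76% and 8.33% of its bases, and its mean of 8.05% ± 0.409 (SD, n = 2) was second to that of mbd4.L. The replicates overlapped at both of its peaks, over 1718 bp in all. The ash2l.S gene had 4 body peaks in replicate 1 and 2 in replicate 2, over 7.23% and 4.40% of its bases. The rbbp5.S gene (chromosome 2S, 62095464 to 62111568) is 16.1 kb long and had no body peak in either replicate, with the nearest 10143 bp away in replicate 1 and 1907 bp away in replicate 2. The short genes dpy30.S (5.42 kb) and men1.L (7.38 kb), which codes for menin, also had no body peak.

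Among H3K4 demethylases, 3 of 5 genes had a body peak in both replicates, where genes of like length would give 3.04. Their averages were 2.08% in replicate 1 and 3.33% in replicate 2, against 2.47% and 4.65%. The kdm5b.S gene (chromosome 2S, 64731532 to 64757201), the only kdm5b homeolog found by symbol, codes for a demethylase that removes H3K4 trimethylation. It had 1 body peak in replicate 1, over 1.95% of its bases, and none in replicate 2. In replicate 2 a peak of 4714 bp began 634 bp beyond its last base. This wide peak overlapped a replicate 1 peak, but the nearest replicate 1 peak to a gene end lay 2049 bp away, so that kdm5b.S had an end peak in replicate 2 alone. The kdm5c.L gene (chromosome 8L, 11156723 to 11187618) had 1 body peak in replicate 1 and 2 in replicate 2, over 3.50% and 4.87% of its bases. The kdm5c.S gene (chromosome 8S, 34793909 to 34819522) is 25.6 kb long and had no body peak in either replicate.

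All 5 genes of the H3K36 group had a body peak in both replicates, where genes of like length would give 4.30. Their averages were 2.53% in replicate 1 and 4.30% in replicate 2, against 2.57% and 4.87%. These genes were setd2.L and setd2.S, for the methyltransferase that places H3K36 trimethylation, and kdm2a.L, kdm2b.L and kdm2b.S, for demethylases with a CXXC zinc finger. Their means ran from 1.56% (kdm2b.S) to 6.13% (setd2.S). Both dot1l genes, for the H3K79 methyltransferase, also had body peaks in both replicates, where genes of like length would give 1.88. Together they averaged 1.09% in replicate 1 and 3.55% in replicate 2, against 2.70% and 4.81% for genes of like length.

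Among H3K27 enzymes and subunits of Polycomb repressive complex 2 (PRC2), 9 of 11 genes had a body peak in both replicates, where genes of like length would give 8.71. Their averages were 1.87% in replicate 1 and 3.46% in replicate 2, against 2.59% and 4.70%. None lacked a body peak in both. Ezh2 is the catalytic subunit of PRC2. The ezh2.L gene (chromosome 6L, 58304372 to 58357457) had 2 body peaks in replicate 1 and 3 in replicate 2, over 1.89% and 3.07% of its bases. The ezh2.S gene (chromosome 6S, 48242775 to 48289116) likewise had 2 and 3, over 2.84% and 4.12% of its bases. L minus S was -0.957 percentage points in replicate 1 and -1.05 in replicate 2. Suz12, the scaffold of PRC2, was the exception in this group. Its L homeolog had 1 body peak in replicate 1 and none in replicate 2, and its S homeolog had none in replicate 1 and 2 in replicate 2.

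Among H3K9 methyltransferases, 5 of 9 genes had a body peak in both replicates, where genes of like length would give 4.50. Their averages were 2.37% in replicate 1 and 4.23% in replicate 2, against 2.26% and 4.47%. Setdb1 is the H3K9 methyltransferase recruited by zinc finger repressors to transposable elements. The setdb1.S gene (chromosome 8S, 94949170 to 94996912) had 5 body peaks in replicate 1 and 7 in replicate 2, over 5.52% and 7.35% of its bases. Its mean was 6.43% ± 1.29 (SD, n = 2), and setdb1.L was close to it at 6.38% ± 1.07 (SD, n = 2). By contrast, ehmt2.L (chromosome 8L, 65541991 to 65563832), for an enzyme that places H3K9 dimethylation, is 21.8 kb long and had no body peak. Its nearest peak was 23990 bp away in replicate 1 and 3275 bp away in replicate 2. The suv39h2.L gene (chromosome 3L, 87148207 to 87166754), for an enzyme of H3K9 trimethylation in heterochromatin, had 2 body peaks in replicate 1 and 1 in replicate 2, over 6.10% and 2.70% of its bases. The suv39h2.S gene (chromosome 3S, 69794194 to 69806921), 12.7 kb long, had none in either.

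The homeologs of a machinery gene were compared next. A gene was given 1 of 3 states, with a body peak in both replicates, in 1 replicate or in none. L and S had the same state in 22 of 29 pairs (75.9%), against 65.4% of other homeolog pairs of like length, which would give 19.0, and 57.1% of the 7734 other pairs. In 21 pairs both homeologs had body peaks in both replicates, where pairs of like length would give 16.2. In 4 pairs the homeologs were opposite, with a body peak in both replicates on one and in neither on the other, where pairs of like length would give 2.25. These were mbd1, kdm5c and suv39h2, which had peaks on L, and dnmt1, which had peaks on S. The lengths of dnmt1.L and dnmt1.S were close, and mbd1.L, with a peak, was shorter than mbd1.S, whereas kdm5c.S and suv39h2.S were shorter than their L homeologs.

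Neither subgenome was the higher throughout the 29 pairs. The share of body bases in peaks was higher on L in both replicates for 9 pairs, higher on S in both for 8, and mixed or tied for 12. The mean was 3.67% on L and 3.16% on S. The mean difference, L minus S, was 0.501 percentage points, with an SD of 2.84 over the pairs, against -0.417 for other pairs of like length. The median difference was -0.0506 points, so mean and median differed in sign. Regardless of sign, the median difference between homeologs was 1.82 points, against 1.81 for other pairs of like length. The largest mean differences with the same sign in both replicates were those of mbd1, at 5.64 points higher on L in both replicates, and mbd2, with L minus S at -5.65 points in replicate 1 and -3.58 in replicate 2. At dpy30, where the L homeolog had 12.7% of its 6.51 kb in a replicate 2 peak, the difference came from 1 replicate.

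**Figure D3:**
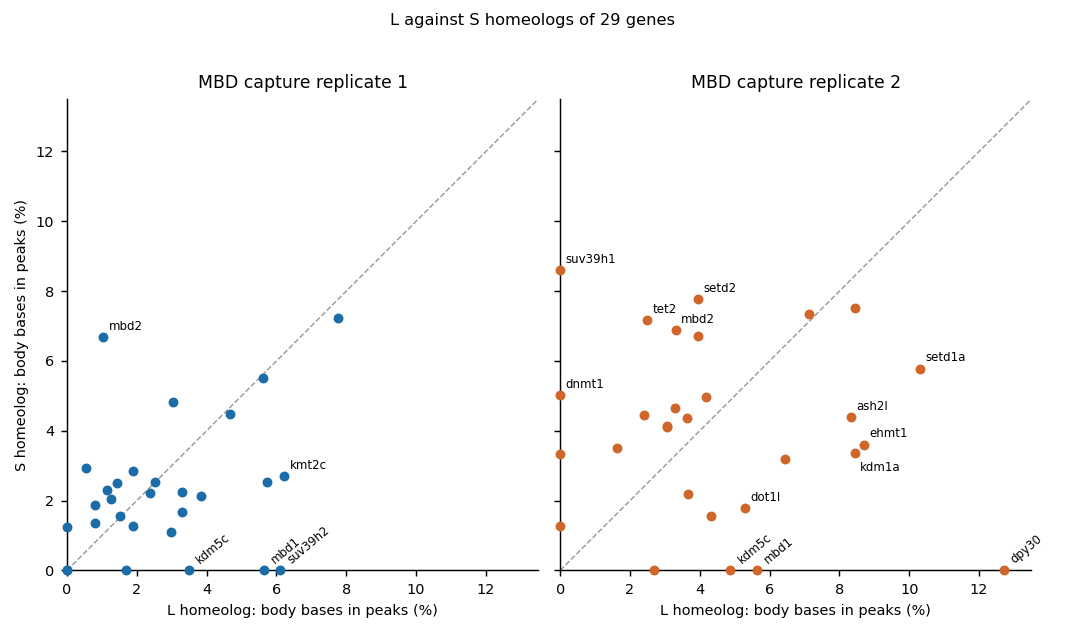
Share of gene body bases in MBD peaks (%) on the L homeolog (x axis) and the S homeolog (y axis) for 29 pairs of machinery genes, in replicate 1 (left) and replicate 2 (right). Each point is a pair, the dashed line marks equal shares, and pairs far from it are named. Points lie on both sides of the line, and mbd1 and kdm5c lie at 0 on S in both replicates.

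The positions of the peaks in pairs with large or small differences were then laid out from the gene end with the lower coordinate. The annotation gave no strand, and which end carries the transcription start site (TSS) could not be told, so that an apparent shift between homeologs may reflect their orientation on the assembly. At setdb1, L had 3 stretches in peaks of both replicates and S had 4. At ash2l, L had 2 such stretches and S had 1. At wdr5, L had 2 and S had none, although each homeolog had body peaks in both replicates.

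**Figure D4:**
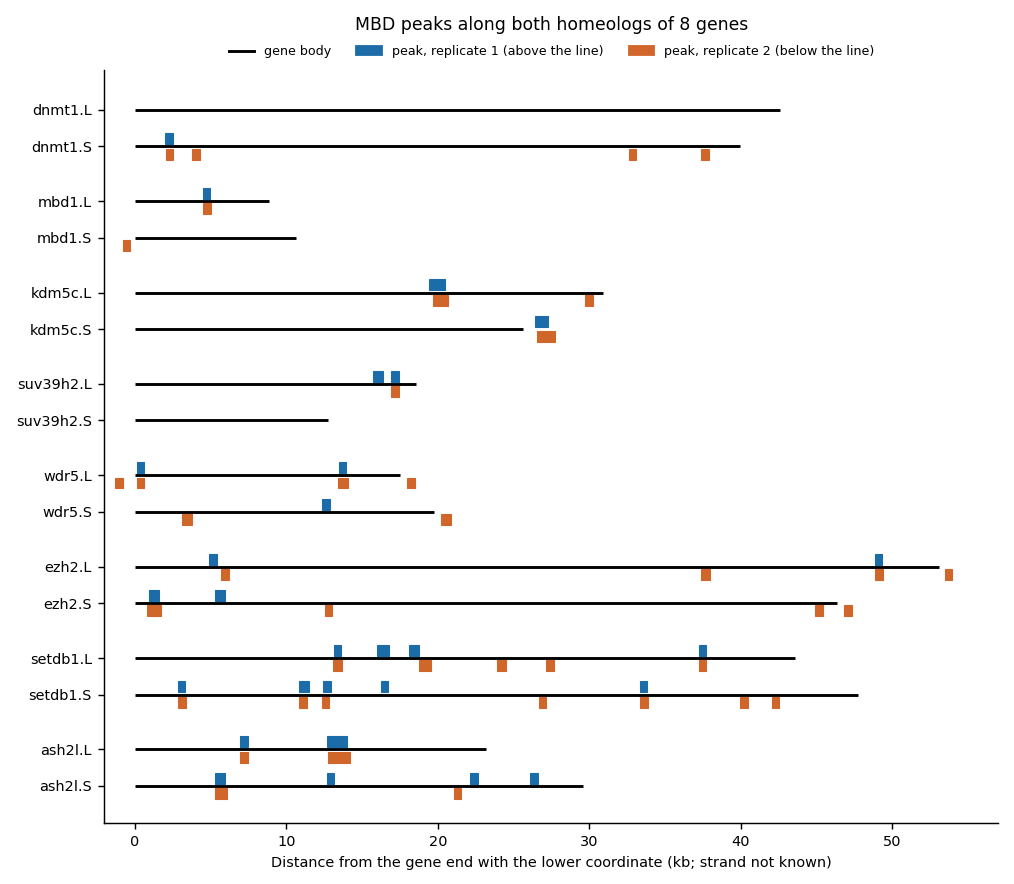
MBD peaks along both homeologs of 8 machinery genes, with L above S. The x axis is the distance in kb from the gene end with the lower coordinate, black lines are gene bodies, and boxes are peaks of replicate 1 (above the line) and replicate 2 (below it), including peaks within 1 kb outside the gene. The dnmt1.L, mbd1.S, kdm5c.S and suv39h2.S bodies hold no peak in either replicate.

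Few machinery genes, as few other coding genes, had a peak at the same gene end in both replicates. The study scored promoters within 1 kb of the TSS. As the strand was not known, the 1 kb inside and outside each end of the gene was scored instead, and a gene counted only where both replicates had a peak at the same end. This held for 6 of 69 machinery genes (8.70%), against 11.7% of genes of like length, which would give 8.05, and 11.3% of all coding genes. In replicate 1, 9 machinery genes (13.0%) had an end peak, against 18.5% of genes of like length. In replicate 2, 22 (31.9%) had one, against 31.7%. The number of genes depended on the window, at 2 genes with 500 bp and 17 with 2 kb. At both ends together, 45 machinery genes (65.2%) had no peak in either replicate, against 62.5% of genes of like length.

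The 6 genes were tdg.S, kmt2c.S, wdr5.L, kdm5c.S, ezh2.S and jarid2.L. In each of them the peaks of the 2 replicates overlapped. At wdr5.L (chromosome 8L, 5578786 to 5596287), for the WD40 subunit that holds H3K4 methyltransferase complexes together, the peak began 134 bp inside the first base in replicate 1 and 123 bp inside it in replicate 2. This was the closest of the 6 to the end itself. At kmt2c.S the peak began 829 bp inside the first base in replicate 1 and 606 bp in replicate 2, and at ezh2.S 935 bp and 841 bp inside it. At the other genes the peak lay outside the gene, beyond the last base. It began 424 bp and 211 bp beyond it at tdg.S, and 792 bp and 926 bp beyond it at kdm5c.S. At jarid2.L (chromosome 6L, 97641096 to 97783115), for a DNA-binding cofactor of PRC2, it began 597 bp beyond the last base in replicate 1 and 752 bp in replicate 2. No other annotated gene overlapped these 6 pairs of peaks. The eed.S gene, for the PRC2 subunit that binds H3K27 trimethylation, had an end peak in each replicate but at opposite ends, and was not counted. Of the 29 homeolog pairs, 5 had an end peak in both replicates on 1 homeolog, and none had it on both. Among single genes of like length, 11.7% had such an end peak. Neither number was computed among other pairs, so neither can be read as particular to the machinery genes.

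Coverage by peaks was lowest in the first kb inside the ends of machinery genes, as it was at genes of like length. In the first kb inside either end, 0.736% of bases were in peaks in replicate 1 and 1.99% in replicate 2, against 1.25% and 2.59% for genes of like length. In this first kb, machinery genes had only 4 body peaks in replicate 1 and 9 in replicate 2, so few peaks could change these values. The peaks in the ranges farther inside were not counted. Between 1 and 2 kb inside, machinery genes were lower in both replicates, at 1.31% and 3.25%, against 2.44% and 4.58%. Between 2 and 5 kb inside they were higher in both, at 3.67% and 4.55%, against 2.27% and 4.25%. From 5 to 20 kb inside, the replicates gave opposite directions in each bin. In the first kb outside, machinery genes were below genes of like length in replicate 1 (1.23%, against 2.70%) and above them in replicate 2 (5.58%, against 5.20%), so the replicates gave no common direction. Between 2 and 5 kb outside, machinery genes had 3.25% in replicate 1 and 7.87% in replicate 2, against 2.85% and 5.39%. Between 1 and 2 kb outside they had 3.35% and 8.25%, against 3.17% and 6.10%. The wide replicate 2 peak beyond kdm5b.S, 4714 bp long and starting 634 bp from the gene, reaches into each of these outside ranges. It adds to the replicate 2 values there. Farther out machinery genes were lower in both replicates, at 2.40% and 4.99% between 5 and 10 kb, against 2.90% and 5.57%, and at 2.71% and 4.87% between 10 and 20 kb, against 2.86% and 5.42%.

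**Figure D5:**
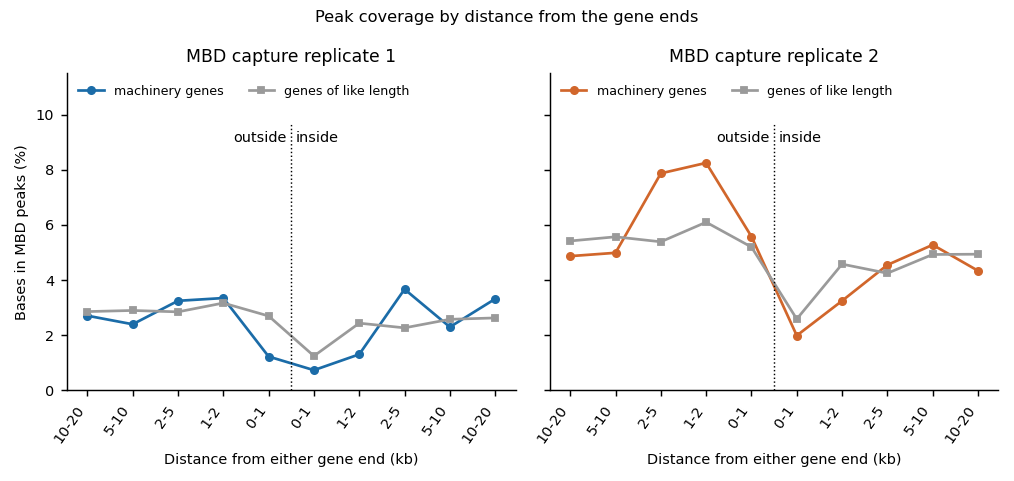
Share of bases in MBD peaks (%, y axis) by distance from either gene end in kb (x axis, outside the gene on the left and inside on the right), in replicate 1 (left) and replicate 2 (right). Coloured points are the 69 machinery genes, fewer where a gene does not reach the distance, and grey squares the genes of like length. Both curves are lowest in the first kb inside the gene in both replicates.

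The sequence around machinery genes held peaks about as often as that around other genes. Between 1 and 20 kb outside the gene, 56 of 69 machinery genes (81.2%) had a peak in both replicates, the same share as genes of like length (81.2%), against 80.0% of all coding genes. The count was 34 with flanks out to 10 kb and 22 with only peaks above the commonest width. No count of genes of like length is given at these settings, so no difference from them can be read. These flanks can hold neighbouring genes. The 3 genes with no flank peak in either replicate (4.35%, against 2.62% of genes of like length) were kmt2a.S, setd2.L and setdb1.S, and each of these had body peaks in both replicates. The shortest machinery gene, suv39h1.L, had no replicate 1 peak within 62787 bp, whereas a replicate 2 peak lay 483 bp beyond its last base and overlapped the neighbouring gene wdr13.L.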

How the data were processed

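Per the study's methods, properly paired alignments to the v10.1 genome (Bowtie) went into HOMER, with which the authors called broad peaks for each replicate against its own Input library (Bowtie 4.2 and HOMER 4.11 in the submitters' processing notes). The file headers give a window of 500 bp, a joining distance of 1000 bp, and a minimum of 12 tags in replicate 1 and 15 in replicate 2. The score that the authors deposited for each peak was 1 throughout, so the lists carry positions only. Peaks need enough CpGs and placeable reads, and a deeper library yields more of them.

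Peak positions were made 1-based and scored against RefSeq gene positions (34461 coding genes) at an overlap of 1 bp or more, in the body, within 1 kb of a gene end and from 1 to 20 kb outside. Expected counts summed, over machinery genes, the share among the 200 other coding genes nearest in log length. For homeologs, other pairs nearest in length were used. No test was run. Functions were tested on simulated data. Python 3.11.15, numpy 2.4.6 and matplotlib 3.10.9 were used.

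The genes, lists and rules were chosen with earlier results of these data known. Named with values were all genes with an end peak in both replicates, the 6 highest shares of body bases in peaks, the 6 longest genes without a body peak, pairs of opposite state, and cxxc1, dnmt1, tet3, uhrf1, ezh2 and kdm5b whatever their values (kmt2b and dnmt3a were not found). Other genes were named after their values were seen. Alternatives were other end windows, overlaps, flanks, shortened lists, other genes of like length, and leaving out each replicate. Lists were shortened by their order, in runs of genome order (348 and 675 runs), which was taken as a rank by inference.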

Additional observations from a re-analysis of the deposited data

How the results depend on the processing

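Of 57 alternatives, 37 moved a count by at most 1.5 times, or a mean share or ratio by less than 1 SD between replicates. The count of homeolog pairs with the same state was among these under all of its alternatives (15 to 24, against 22). The number from other pairs of like length, 19.0 in the main setting, is not given under the alternatives. Whether the difference from other pairs holds under them was therefore not shown. With the commonest width left out, so that only wider peaks entered, body peaks in both replicates fell to 23 genes, end peaks to 3, flank peaks to 22 and the mean share of body bases to 1.35%. With the first part of each list (49.4% and 49.2% of peaks), body peaks were in 30 genes and the mean share was 1.63%. Fewer peaks entered both of these. The number of genes with end peaks depended on the window, at 2 with 500 bp and 17 with 2 kb, and was 3 with an overlap of at least 200 bp. With flanks out to 10 kb, 34 genes had a peak. For flank peaks, no number from genes of like length is given under the alternatives. The ratio of machinery genes to genes of like length changed side of 1. For body peaks it was 1.09, but 0.983 with wide peaks, 0.936 with the first part of each list, and 0.962 to 1.11 with a single replicate. For end peaks it was 0.745, but 1.09 with 2 kb, 0.477 with 200 bp of overlap, 1.26 with wide peaks, 1.01 with the first part of each list and 1.01 with near-equal numbers of peaks (131303 and 134118). With a single replicate it was 0.705 to 1.00, and end peaks were in 9 to 22 genes. The cause was not tested. Neither ratio therefore sets the machinery genes apart from genes of like length. Replicate 2 was deeper and held more peaks, and 42.27% of its tags lay in peaks, against 22.16% in replicate 1. Whether the replicates differed in more than depth was not tested. The 2 lists give no tag counts per peak, so the limit that depth sets for a single gene could not be given. No paired analysis was possible because all libraries analysed belong to a single group.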

Other observations

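A second list of 100 other chromatin genes, matched by symbol from 60 of 69 stems, was scored in the same way. It holds, among others, the H3K36 methyltransferases of the Nsd family, further lysine demethylases, the HP1 proteins (cbx1, cbx3 and cbx5), the Gadd45 proteins and arginine methyltransferases. Some genes of the list, such as mllt1, do not act on methylation. Of the 100 genes, 58 had a body peak in both replicates, where genes of like length would give 57.3. A further 25 had one in a single replicate and 17 in neither. The mean share of body bases in peaks was 3.51% in replicate 1 and 5.16% in replicate 2, against 2.37% and 4.46% for genes of like length. Without the short genes prmt6.S, gadd45b.S and cbx1.S, left out after their values were seen, it was 2.59% and 4.61% over 97 genes, against 2.39% and 4.50%. An end peak in both replicates was found for 10 genes, where genes of like length would give 12.0.

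The genes below were chosen after their values were seen. The highest mean share in this list was that of prmt6.S, for an arginine methyltransferase that acts on histone H3, which is annotated at 1314 bp and had 38.1% of its bases in a peak in replicate 1 and 68.3% in replicate 2. Among longer genes, mllt1.S, for a reader of histone acylation in elongation complexes, had 4 body peaks in replicate 1 and 7 in replicate 2, over 11.0% and 15.1% of its bases. The longest gene of the list without a body peak in either replicate was kdm1b.L, for an H3K4 demethylase, at 29360 bp. Both homeologs of gadd45a and of gadd45g, which are short genes, also had none.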
